A study of Mus musculus with 2 samples.

Results

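Nuclear genes for subunits of the respiratory chain were compared between lung fibroblastic cells of C57Bl/6J mice fed a high fat diet (HFD) and mice fed normal chow (NC), each for 16 weeks. The genes were chosen by symbol alone and not by their values: numbered Ndufa, Ndufb, Ndufc, Ndufs and Ndufv genes for complex I, Sdha to Sdhd for complex II, Uqcr genes and Cyc1 for complex III, Cox4i, Cox5, Cox6, Cox7 and Cox8 genes for complex IV and Atp5 genes for complex V. Pseudogenes and assembly factors were left out. This gave 89 of 21014 identifiers, with 40 in complex I, 4 in complex II, 9 in complex III, 18 in complex IV and 18 in complex V.

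Each diet was represented by 1 droplet-based single-cell library of lung fibroblastic stroma, with no difference in genotype between them. The labels do not say how many animals gave the cells of a library. With 1 library per diet no difference has a replicate check and no test was made. Every interval covers counting error only, and diet and library cannot be told apart.

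Only cells with 500 or more genes detected and a mitochondrial share of 10% or less were used, 6089 in HFD and 8140 in NC. The authors' annotation put them in 5 classes: pericytes, myofibroblasts and the fibroblasts named Asc1, Gas6 and Pi16. The 4 classes other than pericytes together are called pooled fibroblasts here and held 5493 HFD and 7890 NC cells, with a median of 9541 and 7401.5 counts per cell, a ratio of 1.29 that was between 1.28 and 1.38 in single classes. The libraries shared 17 cell barcodes among 6971 and 9015 deposited cells. Class names were checked against marker genes. Slc7a10, which encodes the transporter Asc-1, was at 217.8 CPM (counts per 1000000 counts of the same cells) in HFD Asc1 fibroblasts and 138.3 CPM in NC, Pi16 at 716.7 and 625.4 CPM in Pi16 fibroblasts, and Hhip, a marker of myofibroblasts, at 5101 and 4248 CPM in that class. The class labelled pericytes held 12769 and 12126 CPM of Acta2 and 2878 and 2370 CPM of Myh11, both genes of smooth muscle. Of the pericyte gene Higd1b it held 3.86 and 2.04 CPM, but the 8 pericyte markers together summed to 1005 and 737 CPM there. The same 8 summed to 870 and 732 CPM in myofibroblasts and to 221 and 192 CPM in pooled fibroblasts. This class is called the class labelled pericytes throughout. It made up 596 HFD and 250 NC cells and is kept apart from the fibroblasts. In pooled fibroblasts the 8 markers of alveolar fibroblasts summed to 9347 CPM in HFD and 7378 CPM in NC, and the 8 of adventitial fibroblasts to 2115 and 2621 CPM. Epithelial markers summed to 38.2 and 27.1 CPM, immune markers to 36.6 and 54.5 CPM and endothelial markers to 0.709 and 1.71 CPM. The part of these in the results was not tested.

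The respiratory chain of the inner mitochondrial membrane passes electrons from NADH through complex I, or from succinate through complex II, to ubiquinone, then by complex III to cytochrome c and by complex IV to oxygen. Complexes I, III and IV pump protons, and complex V, the ATP synthase, lets them flow back to make ATP. Complex II is encoded wholly in the nucleus, whereas the other complexes join nuclear subunits to subunits encoded in mitochondrial DNA. In complex I and complex III a set of conserved core subunits carries the redox centres, and many small accessory subunits surround it.

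In pooled fibroblasts most subunit genes were a little higher in the HFD library, and the excess was larger in the small accessory subunits than in the catalytic ones. Summed over all 89 members, the level was 15737 CPM in HFD and 13049 CPM in NC, a ratio of 1.206 (95% Poisson interval 1.199 to 1.213). Of the members, 84 had at least 50 effective counts over both libraries, where an effective count is the count divided by the variance of counts over their mean in rare genes. Their median log2 ratio of HFD over NC was 0.22, against 0.025 over all 13422 genes that passed the same minimum. The ratio was over 1 for 77 of the 84, and the share over 1 was 53.7% among all measured genes and 50.3% among measured genes of at least 50 CPM. The interval lay above 1 for 54 members and below 1 for 3, beside 2624 and 2246 of the 13422 measured genes. Among the 2967 measured genes of at least 50 CPM, it lay above 1 for 1001 and below 1 for 1015.

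At a ratio of at least 1.5, 11 members were higher in HFD, beside 5.45% of all measured genes and 3.34% of those of at least 50 CPM. The count was 5 when the classes were weighted equally, and also 5 when the median of genes of like coding length was subtracted. No member was lower in HFD by that size (0 of 84), beside 4.75% of all measured genes and 3.47% of those of at least 50 CPM. At a ratio of at least 1.2, 33 members were higher, beside 21.7% and 16.2%, and 0 were lower, beside 17.4% and 15.8%. The 5 members under the minimum were Ndufa11b, Cox6a2, Cox7a1, Cox7b2 and a second identifier of Atp5o. They had between 6 and 99 counts in a library.

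**Figure D1:**
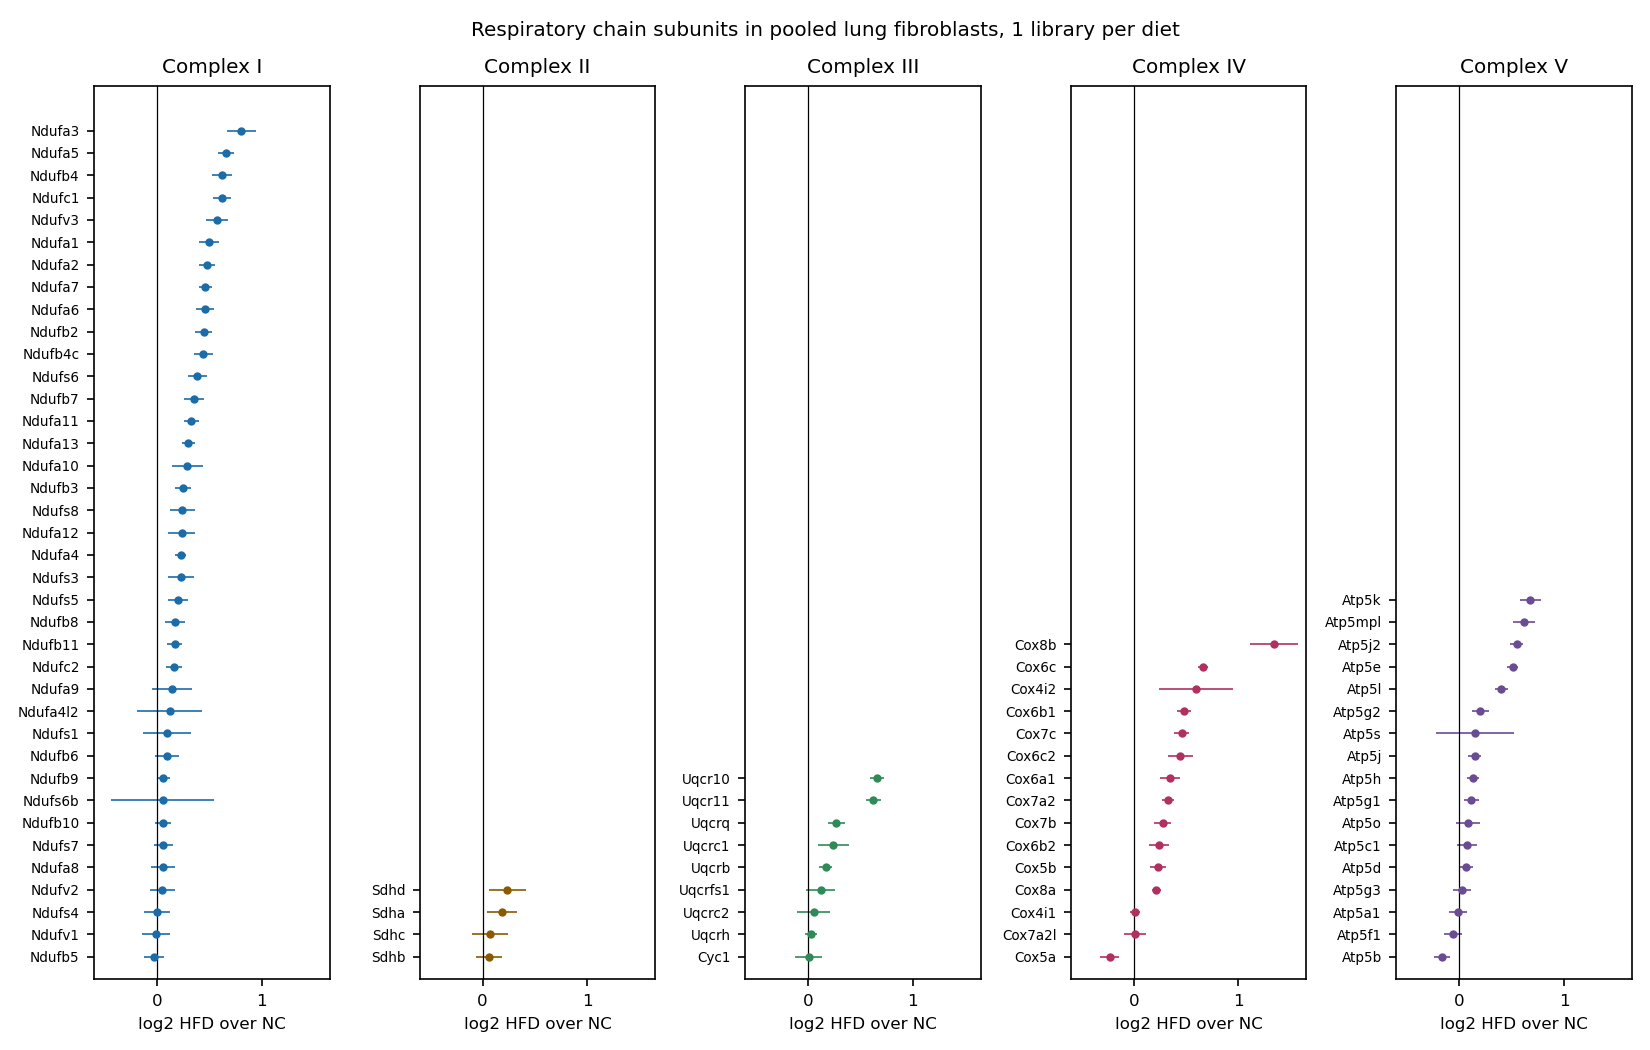
The log2 ratio of HFD over NC (horizontal axis) is plotted for the measured subunit genes in pooled fibroblasts except 1, with 1 panel per complex, with 95% Poisson intervals of counting error as bars and 1 library per diet. Points lie to the right of 0 for 77 genes, and the points run from Cox8b at 1.34 down to Cox5a at -0.23.

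Complex I was higher in sum, at 6036 CPM in HFD and 4969 CPM in NC (ratio 1.215, 1.203 to 1.227). Of its 39 measured members, 36 had a ratio over 1, 16 were at least 1.2-fold higher and 4 at least 1.5-fold higher. The 7 nuclear core subunits, which hold the flavin and the iron-sulphur clusters, had a median log2 ratio of 0.058, and 0 of them reached 1.2-fold. All other complex I members of the symbol rule were grouped as accessory subunits. By symbol alone this group takes in Ndufa4, Ndufa4l2 and the copies Ndufb4c and Ndufs6b, whether or not they serve in complex I. Of these, Ndufa4 was at 468 CPM in HFD and 399 CPM in NC. The 32 measured in this group had a median of 0.27, and 16 reached 1.2-fold. Core subunits summed to 577 CPM in HFD and 554 CPM in NC, a ratio of 1.04, and accessory subunits to 5459 and 4415 CPM, a ratio of 1.24.

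Ndufa3, a small accessory subunit, was at 79.1 CPM in HFD and 45.3 CPM in NC, a ratio of 1.75 (1.58 to 1.93). Ndufa5, an accessory subunit of the hydrophilic arm, was at 234.2 and 148.3 CPM, a ratio of 1.58 (1.49 to 1.67). Ndufb4 and Ndufc1, accessory subunits of the membrane arm, each had a ratio of 1.54, Ndufb4 from 147.6 and 95.96 CPM and Ndufc1 from 177.7 and 115.6 CPM. For these 4 genes HFD was above NC in each of the 5 classes, although for Ndufb4 in myofibroblasts the levels, 92.9 and 88.6 CPM, were close. Ndufb4 has a near-identical copy in the tables, Ndufb4c (ratio 1.36), and reads may be split between them.

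Among the core subunits, Ndufv1, which binds the flavin, was at 65.2 and 65.8 CPM, with an interval of 0.903 to 1.09. Ndufs1, the largest core subunit, was at 23.7 and 22.2 CPM, a ratio of 1.07 (0.913 to 1.25).

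Complex II, which links the chain to the citric acid cycle, differed least in sum among the complexes, at 222 and 203 CPM (ratio 1.09, 1.04 to 1.15). Its 4 members all had a ratio over 1, and 0 reached 1.2-fold. The membrane anchor Sdhd was at 41.3 and 35.1 CPM (1.18, 1.04 to 1.33), and the flavoprotein Sdha at 60.2 and 52.97 CPM (1.14, 1.03 to 1.26). The iron-sulphur subunit Sdhb, at 77.6 and 74.5 CPM, and the anchor Sdhc, at 42.4 and 40.4 CPM, had intervals that held 1.

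Complex III summed to 1763 CPM in HFD and 1459 CPM in NC (1.21, 1.19 to 1.23), and all 9 members had a ratio over 1. The 2 redox subunits, cytochrome c1 (Cyc1) and the Rieske protein (Uqcrfs1), summed to 132 and 127 CPM, a ratio of 1.04 (0.974 to 1.11). The 5 small subunits summed to 1523 and 1236 CPM, a ratio of 1.23 (1.21 to 1.26). Uqcr10 was at 312.4 and 198.1 CPM, a ratio of 1.58, and Uqcr11 at 279.7 and 181.8 CPM (1.54, 1.46 to 1.62), both small single-pass subunits. The hinge protein Uqcrh was at 411 and 404 CPM (1.02, 0.982 to 1.06), so the small subunits were not alike.

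Complex IV had the highest median log2 ratio of the complexes, 0.32, with a sum of 3975 CPM in HFD and 3216 CPM in NC (1.24, 1.22 to 1.25). Of its 15 measured members, 14 had a ratio over 1, 9 were at least 1.2-fold higher and 3 at least 1.5-fold higher. Among the common isoforms Cox6c was at 731.8 CPM in HFD and 462.6 CPM in NC. Its copy Cox6c2 had a ratio of 1.36, and reads may be split between them. Cox6b1, which lies at the contact of the 2 monomers, had a ratio of 1.39 (1.33 to 1.46) and Cox7c one of 1.37 (1.31 to 1.44). Cox4i1, the largest nuclear subunit, was at 475 and 471 CPM (1.01, 0.975 to 1.04). Cox5a, a subunit on the matrix side, was lower, at 146 and 171 CPM (0.852, 0.803 to 0.905).

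Complex V summed to 3741 CPM in HFD and 3201 CPM in NC (1.17, 1.15 to 1.18), and 14 of its 17 measured members had a ratio over 1. The 4 small membrane subunits Atp5k, Atp5l, Atp5j2 and Atp5mpl summed to 921 and 639 CPM (1.44, 1.40 to 1.48), and each had a ratio of at least 1.2. Atp5k, subunit e at the dimer contact, was at 136 and 84.9 CPM (1.60, 1.49 to 1.72), and Atp5mpl at 131 and 85.4 CPM (1.54, 1.43 to 1.66).

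The other parts of the synthase had lower ratios in sum, but not in every gene. The 3 genes of the c ring summed to 597 and 550 CPM (1.09, 1.05 to 1.12), and the 4 genes of the peripheral stalk to 946 and 886 CPM (1.07, 1.04 to 1.09). The 5 genes of the F1 part had a ratio of 1.13 in sum. Among them the epsilon subunit of the central stalk Atp5e was at 519 and 364 CPM (1.43, 1.38 to 1.48), above Atp5l at 1.32, while the catalytic beta subunit Atp5b was at 188 and 210 CPM (0.894, 0.847 to 0.943). The alpha subunit Atp5a1, at 159.8 and 160.98 CPM, had an interval of 0.936 to 1.05. The median of the 5 F1 genes was 0.063 on the log2 scale, and that of the small membrane subunits 0.59.

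Of 77 members measured in all 5 classes, 40 had a ratio over 1 in 5 classes, 19 in 4, 9 in 3, 5 in 2 and 4 in 1 class. The same count was not made over all genes, so it is not shown to be particular to the members. The median log2 ratio of all measured members was 0.26 in Asc1 fibroblasts, 0.20 in Gas6 fibroblasts, 0.11 in Pi16 fibroblasts, 0.20 in myofibroblasts and 0.28 in the class labelled pericytes. Over all measured genes it was -0.0043, 0.022, 0.013, 0.0043 and 0.083 in the same order. The classes come from the same 2 libraries and are not replicates, and differences between classes in the size of the ratio were not tested.

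In Asc1 fibroblasts 73 of 82 measured members had a ratio over 1 (49.5% of all measured genes there), 12 were at least 1.5-fold higher (4.88%) and 0 lower by that size (5.46%). At 1.2-fold, 39 of the 82 were higher (19.9%) and 1 was lower (20%). In Gas6 fibroblasts 66 of 82 had a ratio over 1 (52.5%), with 10 at least 1.5-fold higher (6.08%) and 0 lower (5.91%), and 34 at least 1.2-fold higher (24.4%) and 2 lower (20.4%). Both classes held more members above 1 than genes in general did. In Pi16 fibroblasts 59 of 80 had a ratio over 1 (51.5%). Of these 80, 3 were at least 1.5-fold higher (5.7%) and 0 lower (5.88%), and 28 at least 1.2-fold higher (23.1%) and 3 lower (21.3%), so the count past 1.5-fold was near that of all genes. In myofibroblasts 60 of 79 had a ratio over 1 (50.3%), with 9 at least 1.5-fold higher (7.62%) and 1 lower (7.94%), and 36 at least 1.2-fold higher (24.9%) and 5 lower (25.5%). In the class labelled pericytes 74 of 81 had a ratio over 1 (58.7%), with 14 at least 1.5-fold higher (11.4%) and 1 lower (6.77%), and 42 at least 1.2-fold higher (31.9%) and 1 lower (19.2%).

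Complex IV had the highest median in Asc1 fibroblasts, at 0.38, and in Gas6 fibroblasts, at 0.35, but 0.11 in Pi16 fibroblasts. Complex II went from -0.045 in myofibroblasts to 0.42 in the class labelled pericytes, over 4 genes of low level. Summed over the members of complex IV, HFD over NC was 1.28 (1.26 to 1.31) in Asc1, 1.22 (1.19 to 1.24) in Gas6 and 1.11 (1.08 to 1.15) in Pi16 fibroblasts.

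**Figure D2:**
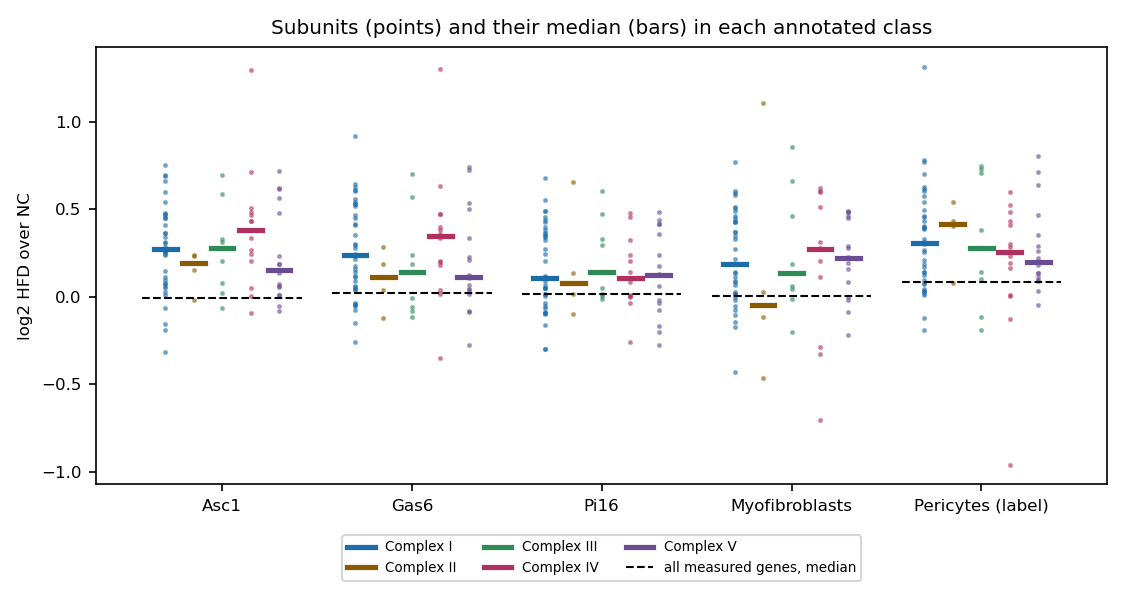
The log2 ratio of HFD over NC (vertical axis) is shown for each measured subunit gene (points) and as the median of each complex (bars) in the 5 annotated classes, 1 library per diet; the dashed line is the median of all measured genes in that class. Medians lie above the dashed line in each class except for complex II in myofibroblasts, at -0.045.

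Ranked by the lower bound of the interval, Uqcr10 was among the 2 highest members in 3 classes. It was at 247.3 CPM in HFD and 162.4 CPM in NC in Pi16 fibroblasts, at 338.7 and 187.3 CPM in myofibroblasts and at 412.6 and 248.99 CPM among cells labelled pericytes, so HFD was the higher in each. Cox6c in Asc1 fibroblasts was at 807.7 and 492.1 CPM (1.64, 1.57 to 1.72). Ndufa3 in Gas6 fibroblasts was at 77.5 and 41.0 CPM (1.89, 1.60 to 2.23). Ndufa5 among cells labelled pericytes was at 301.1 and 175.3 CPM (1.72, 1.47 to 2.02).

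Cox5a had an interval below 1 in 3 classes, and Atp5b in 2. Both had a ratio under 1 in 4 of the 5 classes, as had Atp5f1 and Uqcrfs1. It was at 139.1 and 176.98 CPM in Gas6 fibroblasts (0.786, 0.710 to 0.870), 119.97 and 143.6 CPM in Pi16 fibroblasts (ratio 0.836, interval up to 0.995) and 98.3 and 160.2 CPM in myofibroblasts (0.613, 0.454 to 0.822). In Asc1 fibroblasts it was at 166.1 and 177.3 CPM, with an interval of 0.858 to 1.02, and among cells labelled pericytes at 229.6 and 200.9 CPM, with an interval of 0.979 to 1.34. Cox4i1 differed in myofibroblasts, at 514 and 627 CPM (0.819, 0.716 to 0.937), and in 0 of the other 4 classes did its interval leave out 1. Ndufb10, an accessory subunit of complex I, was lower in Pi16 fibroblasts, at 161.9 and 198.8 CPM (ratio 0.814, interval up to 0.946).

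Several subunits of complex IV have copies that are used in few tissues, and these were described in each class. Cox8b, the isoform known from heart, skeletal muscle and brown fat, had the highest ratio of all measured members in pooled fibroblasts. It was at 37.8 CPM in HFD and 14.96 CPM in NC in pooled fibroblasts (2.53, 2.16 to 2.97), from 2185 and 980 counts. By class, it was at 50.9 and 20.7 CPM in Asc1, 38.2 and 15.5 CPM in Gas6 and 11.5 and 2.01 CPM in Pi16 fibroblasts. HFD was higher in these 3 classes, of which Pi16 fibroblasts, with 97 and 19 counts, were under the minimum of effective counts. In myofibroblasts it was at 1.13 and 2.97 CPM, from 4 and 10 counts, and among cells labelled pericytes at 3.78 and 1.59 CPM, from 50 and 7 counts.

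A Cox8b count was found in 13.2% of HFD and 6.72% of NC pooled fibroblasts, and in 5.28% and 2.43% after each cell was thinned to 2000 counts. In myofibroblasts, with median depths of 6617 and 4816 counts, the unthinned shares were 0.392% and 0.300%. The 10 cells with most Cox8b counts held 6.64% of the HFD and 7.04% of the NC counts, while in Pi16 fibroblasts they held 59.8% and 73.7%. The common isoform Cox8a was at 679 and 586 CPM (1.16, 1.13 to 1.19).

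Markers of striated or cardiac muscle were also higher in sum in HFD in pooled fibroblasts, but single classes differed. Only 2 of them reached the minimum of effective counts, and their part in the result was not tested. The 12 of 16 listed markers that were analysed summed to 47.2 CPM in HFD and 19.99 CPM in NC, most of it Tcap at 32.4 and 10.4 CPM, and Actc1 at 9.22 and 5.10 CPM. Ckm had 0 counts in HFD and 1 in NC, and Myh7 had 0 in both. Where Cox8b was highest, in Asc1 fibroblasts, the muscle sum was 20.2 and 8.82 CPM. In the class labelled pericytes, where Cox8b was at 3.78 and 1.59 CPM, the muscle sum was 2856 and 2999.9 CPM. It was 18.9 and 15.2 CPM in Gas6 and 33.9 and 9.40 CPM in Pi16 fibroblasts, where Cox8b was higher in HFD. In myofibroblasts, where Cox8b was at 1.13 and 2.97 CPM, the muscle sum was 434 and 174 CPM. The 4 of 9 listed adipocyte markers that were analysed summed to 4.22 and 2.38 CPM, and 0 of them reached the minimum. Most of the HFD sum was the coactivator Ppargc1a, at 3.01 and 0.824 CPM. Cidea was at 0.709 and 1.37 CPM, Plin1 at 0.502 and 0.183 CPM, and Cidec had 0 counts in both.

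Cox6b2, known from testis, was at 138 and 117 CPM in pooled fibroblasts (1.18, 1.10 to 1.26). It was highest in Gas6 fibroblasts, at 182.9 and 142.5 CPM, and lay at 135.5 and 117 CPM in Asc1 and 99.5 and 84.4 CPM in Pi16 fibroblasts. In myofibroblasts it was at 10.1 and 7.73 CPM, from 36 and 26 counts, and among cells labelled pericytes at 12.5 and 24.3 CPM. The order of the classes was the same on both diets.

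Cox4i2, the copy of Cox4i1 known from lung and from low oxygen, showed the opposite distribution. It was at 155 and 102 CPM in myofibroblasts and 33.0 and 36.1 CPM among cells labelled pericytes, but between 1.74 and 3.55 CPM in the other classes. In myofibroblasts 8.24% of HFD and 5.997% of NC cells had a count, and 10 cells held 64.2% and 65.99% of the counts. Its pooled ratio was 1.51 (1.18 to 1.93). Ndufa4l2, named for its likeness to the subunit Ndufa4, was at 44.8 and 47.8 CPM in Pi16 fibroblasts and 67.0 and 39.2 CPM in myofibroblasts, where 10 cells held 80.3% and 93.9% of the counts. The muscle isoforms Cox6a2 and Cox7a1 had 19 and 6, and 99 and 57 counts in pooled fibroblasts, too few for a ratio to be read.

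**Figure D3:**
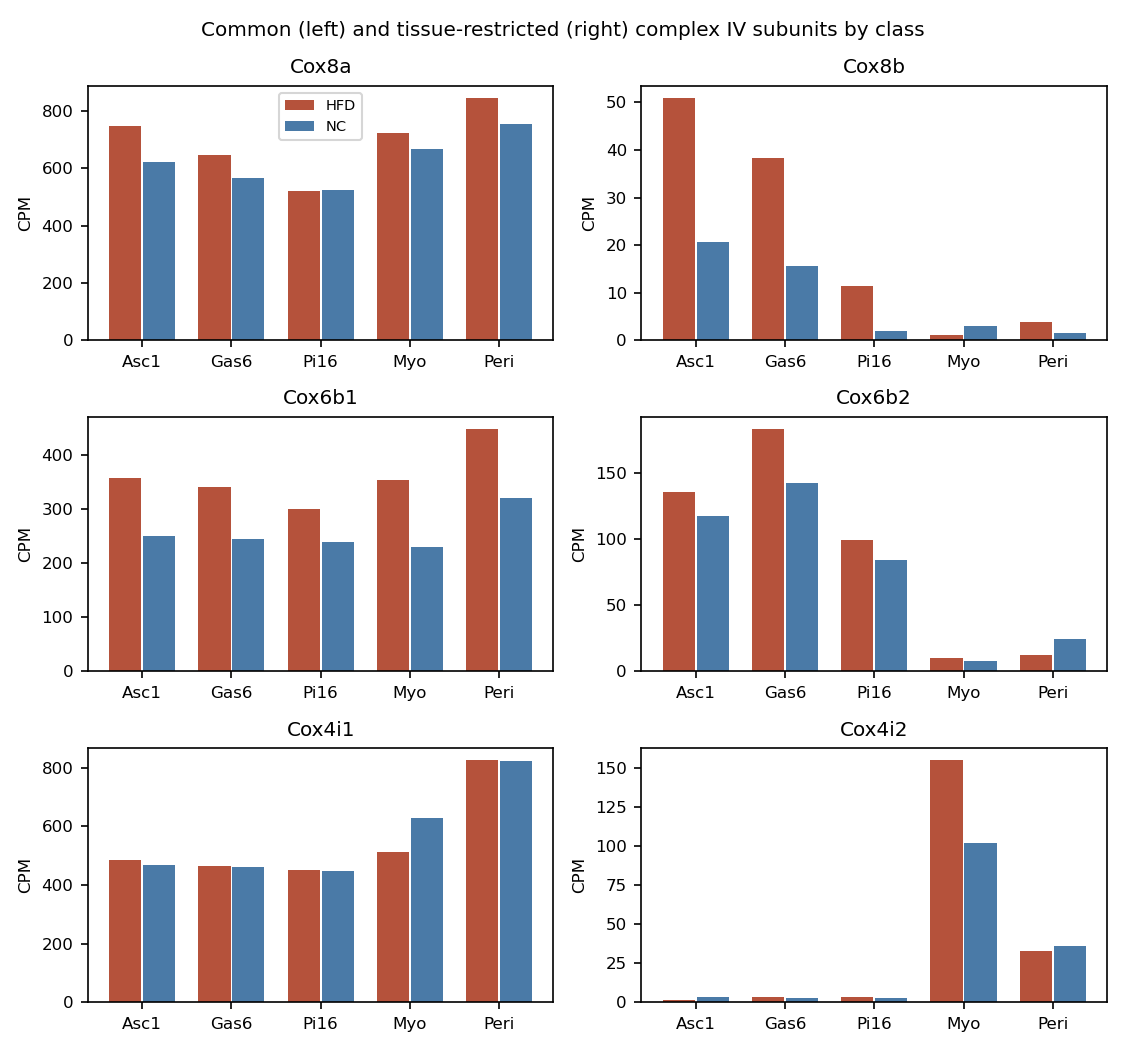
Levels in CPM (vertical axis, from 0) in HFD (red) and NC (blue) are shown for 3 common subunits of complex IV (left) and their tissue-restricted copies (right) in each class, 1 library per bar. Cox6b2 is high in the Asc1, Gas6 and Pi16 classes and low in myofibroblasts (Myo) and the class labelled pericytes (Peri). Cox8b is high in the Asc1 and Gas6 classes only, with Pi16 fibroblasts at 11.5 and 2.01 CPM. Cox4i2 is high in myofibroblasts, at 155 and 102 CPM.

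Across the complexes, subunits with short coding sequences had the higher ratios. Among 81 measured members with an annotated coding sequence, the log2 ratio in pooled fibroblasts had a Spearman correlation of -0.64 with the longest coding length. With the level in NC it was 0.043, over all 84 measured members. These members share the 2 libraries, so the values are descriptions. In single classes the correlation with coding length ran from -0.42 in myofibroblasts to -0.65 in Asc1 fibroblasts. With the longest transcript, untranslated parts included, it was -0.34 over 84 members.

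All 21 members with a coding length of up to 300 nt had a ratio over 1, and 17 of them were at least 1.2-fold higher, with a median log2 ratio of 0.49. The median was 0.17 for the 39 members over 300 and up to 600 nt, 0.078 for the 12 over 600 and up to 1200 nt and 0.053 for the 9 above that. Other genes of at least 50 CPM with short coding sequences were also higher in HFD, but less so. The 110 others of up to 300 nt had a median of 0.15, and 42.7% of them were at least 1.2-fold higher, 100 of them without ribosomal proteins had 0.11, and the medians of the 3 longer classes were 0.030, -0.017 and -0.029. A member above the pattern was Ndufv3, an accessory subunit with a long annotated form, at a ratio of 1.48. What moves with coding length between these libraries was not tested, and it cannot be told apart from diet with 1 library each.

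**Figure D4:**
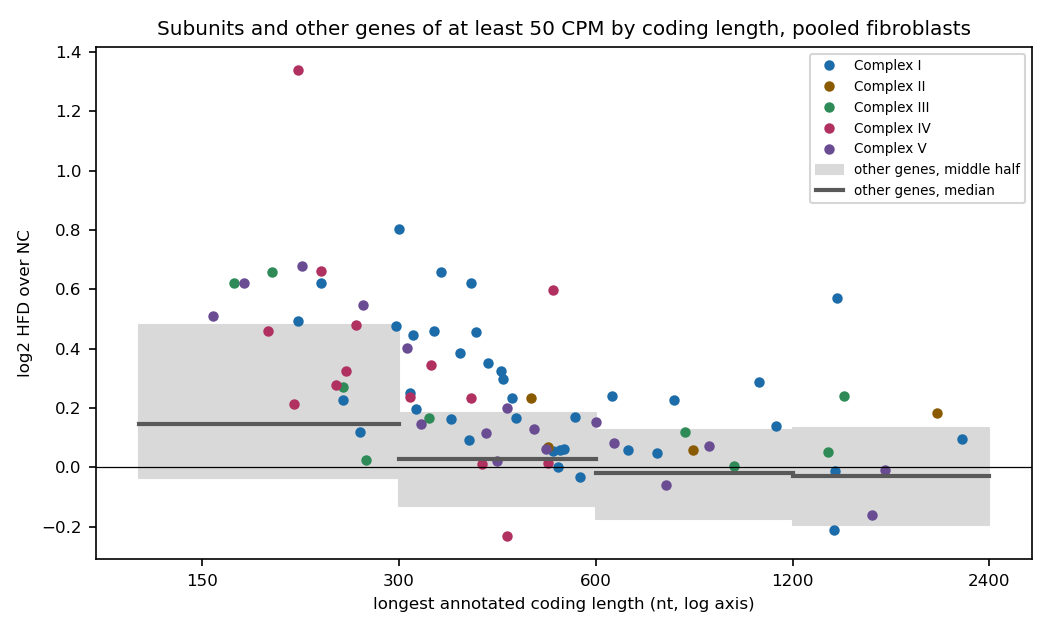
The log2 ratio of HFD over NC in pooled fibroblasts (vertical axis) is plotted against the longest annotated coding length in nt (log axis) for 81 subunit genes, coloured by complex; grey bands and lines give the middle 50% and the median of other genes of at least 50 CPM in 4 length classes. Subunits of up to 300 nt have a median of 0.49 and other genes of that length 0.15.

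The subunits encoded in mitochondrial DNA, transcribed in the organelle and counted in the same cells, were compared as a list of 13. Their sum was 25098 CPM in HFD and 23553 CPM in NC (1.07, 1.06 to 1.07), and 12 of 13 had a ratio over 1. For complex I, the 7 organelle genes had a ratio of 1.16 in sum, beside 1.21 for the nuclear ones. For complex IV, the 3 organelle genes had 1.03, beside 1.24. Within complex V it was 1.04 beside 1.17, and for mt-Cytb of complex III 1.10 beside 1.21. In pooled fibroblasts the nuclear sum was thus the more different in each of the 4 complexes that hold both. Pi16 fibroblasts differed, with the higher ratio in the organelle sum for complexes I, III and V, but not for complex IV. For complex I it was 1.24 there, beside 1.13 for the nuclear sum, and for the other complexes the intervals overlapped. In the other classes the nuclear ratio was the higher in each complex. Only cells with a mitochondrial share of 10% or less were used, which limits the organelle sums.

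The organelle genes farthest above 1 were short ones. The gene mt-Nd4l was at 554 and 355 CPM (1.56, 1.51 to 1.62), mt-Atp8 at 260 and 181 CPM (1.43, 1.36 to 1.51) and mt-Nd3 at 262 and 205 CPM (1.28, 1.22 to 1.34). Each of the first 2 lies on a shared messenger with a longer gene, mt-Nd4 and mt-Atp6, whose ratios were 1.17 and 1.03. Because the reading frames of each pair overlap, reads cannot be divided surely between them. The lowest was mt-Co2 at 0.984 (0.972 to 0.996).

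Other mitochondrial genes were described by list, beside 21.7% of all measured genes at least 1.2-fold higher and 17.4% lower. Of 33 measured assembly factors of complexes II to V, 14 were at least 1.2-fold higher and 2 lower, with a median of 0.195. Pet100, which helps build complex IV, was at 49.5 and 28.5 CPM (1.74, 1.53 to 1.96), and the copper chaperone Cox17 at 247.9 and 166.1 CPM (1.49, 1.42 to 1.57). Fmc1, which helps build the ATP synthase, had a ratio of 1.43. Of 17 complex I assembly factors 5 were at least 1.2-fold higher and 0 lower, with a median of 0.093 and Ndufaf8 at 1.29 (1.16 to 1.42). Of 75 mitochondrial ribosomal proteins, 20 were higher by that size and 1 lower, median 0.13. Of 86 measured cytosolic ribosomal proteins, 23 were higher and 1 lower, median 0.088. For both ribosomal lists the share at least 1.2-fold higher was near that of all measured genes, but the share lower was not. Over 1 were 59 of the 75 mitochondrial and 58 of the 86 cytosolic ones, beside 53.7% of all measured genes. At 1.5-fold, 11 cytosolic and 1 mitochondrial were higher, beside 5.45%, and 0 of either list were lower, beside 4.75%.

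Enzymes and carriers that feed the chain did not share the direction. Of 17 citric acid cycle genes, 1 was at least 1.2-fold higher and 2 lower, with a median of 0.012. Idh2 was at 59.5 and 47.6 CPM (1.25, 1.13 to 1.39) and the malate dehydrogenase Mdh2 at 82.2 and 97.7 CPM (0.841, 0.776 to 0.911). Of 10 measured inner membrane carriers, 1 was higher and 1 lower, with a median of 0.014, and the ADP/ATP carrier Slc25a5 was at 128.8 and 162.8 CPM (0.791, 0.743 to 0.843). Cytochrome c, Cycs, which carries electrons from complex III to complex IV, was at 154 and 193 CPM (0.798, 0.753 to 0.846). Each of the 5 classes had a ratio under 1, from 0.674 in Pi16 to 0.880 in Asc1 fibroblasts, and in myofibroblasts the interval held 1.

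Of 13 measured regulators of respiratory gene transcription, 3 were at least 1.2-fold higher and 4 lower, with a median of 0.067. Nrf1, an activator of many subunit genes, was at 12.8 and 16.7 CPM (0.767, 0.625 to 0.938), and the coactivator Pprc1 at 15.8 and 21.96 CPM (0.720, 0.601 to 0.861). Mterf1a, a mitochondrial termination factor, was at 3.39 and 1.51 CPM (2.24, 1.33 to 3.86). The coactivator Ppargc1a was under the minimum, with 174 counts in 0.910% of HFD and 54 in 0.330% of NC cells, and is named here after its values were seen. Of 15 measured genes known to respond to hypoxia, 3 were at least 1.2-fold higher and 3 lower. The list includes the members Ndufa4l2 and Cox4i2, and Cox4i2 is among the 3 higher. The glucose transporter Slc2a1 was at 9.38 and 19.2 CPM (0.487, 0.389 to 0.607) and Vegfa at 161 and 118 CPM (1.37, 1.28 to 1.45).

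Levels were also compared between classes within a library, as each class over pooled fibroblasts. The class labelled pericytes was the highest, with 1.38 times the pooled level of all members in HFD and 1.34 times in NC. By complex this ran from 1.36 to 1.47 in HFD and from 1.17 to 1.39 in NC. The organelle-encoded subunits were at 1.76 and 1.70 times, whereas mitochondrial ribosomal proteins were at 1.11 and 1.08 times. Pi16 fibroblasts were the lowest, at 0.880 and 0.943 times for all members, while their organelle-encoded subunits were at 1.10 and 1.02 times. Asc1 fibroblasts, Gas6 fibroblasts and myofibroblasts lay between 0.978 and 1.07 times on both diets.

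**Figure D5:**
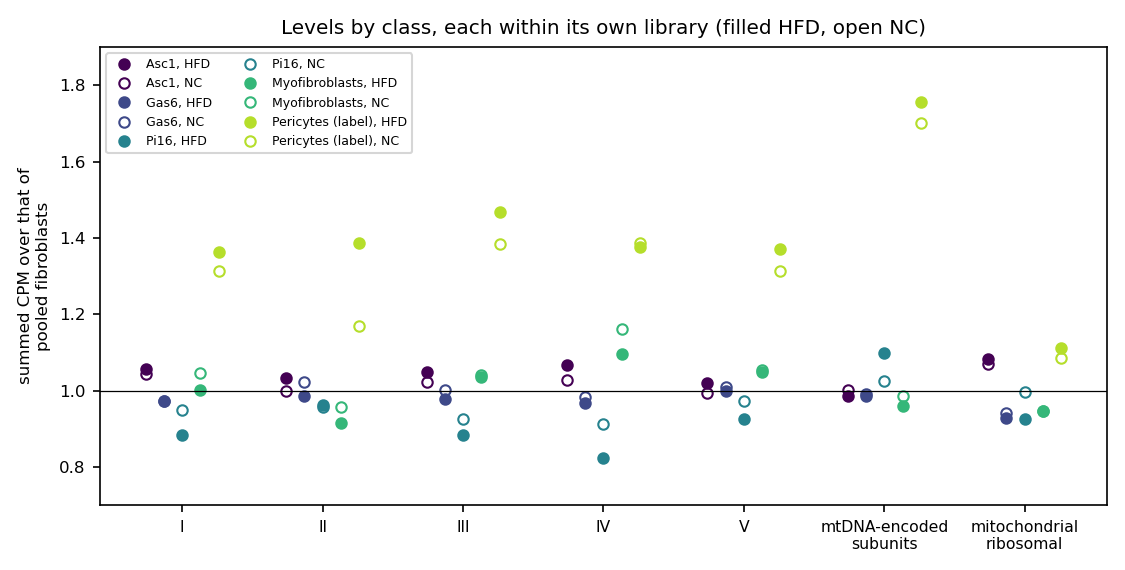
The summed CPM of each complex's nuclear subunits, of subunits encoded in mitochondrial DNA and of mitochondrial ribosomal proteins is shown in each class as a multiple of its level in pooled fibroblasts of the same library (vertical axis), filled for HFD and open for NC. The class labelled pericytes lies above the others in each set, from 1.08 to 1.76.

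The finer annotation splits SNAT2 fibroblasts from the Asc1 class. After the cell filter 245 HFD and 359 NC cells of this subset remained, 30.2% and 36.3% of those deposited, against 96.3% and 97.7% of the other Asc1 cells. Members summed to 7733 and 6737 CPM in the subset and to 16888 and 13689 CPM in the other Asc1 cells, so the subset was the lower on both diets. Its median count was 4009 and 3037 per cell, against 8747 and 6631, and its median mitochondrial share 6.27% and 6.44%, against 3.48% and 3.40%. Its organelle-encoded subunits were the higher, at 39025 and 35551 CPM against 24121 and 23022 CPM. Depth and mitochondrial share thus moved with the subset, and their part in the lower sum was not tested.

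Upstream sequences were read from the RefSeq promoter table for GRCm38.p6, which matched 68 of the 89 members by symbol with 73 promoters of 250 bases before to 50 after the start. Motifs were searched on either strand. The NRF1 motif, 10 bases with 1 of them free, was in 24.7% of member promoters, in 4.60% of all 32851 promoters and in 10.2% of those of measured genes. The YY1 motif AAGATGGCG was in 9.59%, 1.40% and 3.10%, the ERR motif TCAAGGTCA in 2.74%, 0.423% and 0.315% and the ETS motif CCGGAAGT in 6.85%, 3.89% and 8.17%. By complex, NRF1 matches were in 8 of 34 promoters for complex I, 2 of 3 for complex II, 1 of 5 for complex III, 1 of 13 for complex IV and 6 of 18 for complex V. The 17 measured genes with an NRF1 match had a median log2 ratio of 0.23 in pooled fibroblasts, and the 49 without one also 0.23.

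The 100 bases before the start are shown for 5 members at least 1.5-fold higher, to set promoters with a match beside that of Cox8b, which has none of the 4 motifs in the whole window. Each is 5′ to 3′ on the gene's strand, and capitals mark the NRF1 motif, or the ETS motif in Uqcr11. The windows are on GRCm38.p6.
Ndufa5 (chr6:24527691-24527790, strand -): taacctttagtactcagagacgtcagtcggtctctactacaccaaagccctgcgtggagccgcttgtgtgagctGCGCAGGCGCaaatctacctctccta
Ndufb4 (chr16:37654369-37654468, strand -): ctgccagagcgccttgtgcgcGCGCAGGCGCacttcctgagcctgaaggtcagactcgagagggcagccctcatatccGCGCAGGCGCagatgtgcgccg
Uqcr11 (chr10:80406822-80406921, strand -): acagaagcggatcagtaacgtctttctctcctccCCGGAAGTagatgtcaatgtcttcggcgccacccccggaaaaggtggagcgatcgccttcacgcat
Cox8b (chr7:140900447-140900546, strand -): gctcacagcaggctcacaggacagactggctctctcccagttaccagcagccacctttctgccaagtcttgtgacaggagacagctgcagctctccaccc
Atp5k (chr5:108434400-108434499, strand -): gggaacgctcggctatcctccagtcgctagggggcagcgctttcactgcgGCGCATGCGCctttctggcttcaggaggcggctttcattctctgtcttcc

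Ndufb4 has 2 NRF1 matches within these 100 bases, and Ndufa5 (at this start site of the 2 in the table) and Atp5k 1 each. A match is a string of letters and does not show that a factor binds there. Members at least 1.5-fold higher thus include promoters with and without such a match.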

How the data were processed

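Expression was deposited as log2 of CPM after a pseudocount of 1 was added, as found from the values. Each cell's total is an estimated count that the authors deposited and is not always whole. Mitochondrial shares are in percent, per the file headers, which also name the class labels. STAR and mm39 were used, per the submitters' processing notes. Whether molecules or reads were counted is not given in the sources used here.

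Counts were recovered as CPM times the cell's total and rounded, and within 0.01 of a whole number were 98.8% of nonzero HFD and 98.96% of NC values. Counts of rare genes varied more than single molecules, by a factor of 4.85 in HFD and 3.98 in NC. Counts were divided by it before exact conditional 95% Poisson intervals of the ratio were computed (Python 3.11.15, scipy 1.17.1). On counts simulated for pooled fibroblasts with the same factors, 95.5% of intervals over 13422 genes held the simulated ratio. Because the simulation used these factors, it cannot show whether a factor from rare genes suits abundant genes such as the subunits. A gene with at least 50 effective counts was called measured. A 0 count allows up to 0.0519 CPM in HFD and 0.0458 CPM in NC pooled fibroblasts (3 counts). No doublet caller was run here. Of the identifiers, 20180 had a symbol in the gene name table. Lengths came from GENCODE vM21.

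The members were given by a symbol rule, and the members, subunit roles and gene lists were chosen with earlier results of these data known. Named were, per complex, the 4 members with the interval farthest from 1 and the lowest, per class 2 highest and 2 lowest, all isoform pairs, and up to 3 genes per list; other named genes were chosen after their values were seen. Alternatives to the cell filter, scaling (TMM factors from edgeR 4.0.16 among them), thinning, minimum count and class weights are given in the closing section. Ratios are HFD over NC of summed counts per 1000000, with no test. Values of 1 member are not reported here, but it is kept in the counts, sums and medians.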

Additional observations from a re-analysis of the deposited data

Results flagged for a closer look

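For Cox6b2 and Atp5b the HFD over NC ratio lay on opposite sides of 1 in different classes with intervals that left out 1 on both sides. The difference between classes was not tested. Cox6b2 had a log2 ratio of 0.206 in Asc1 and 0.36 in Gas6 fibroblasts and -0.959 in the class labelled pericytes, where 165 HFD and 107 NC counts were found. Atp5b was at 0.22 in the class labelled pericytes and -0.275 in both Gas6 and Pi16 fibroblasts.

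3 genes of known subunits fall outside the symbol rule and were not counted as members. Of these, Ndufab1 was in the list of mobile carriers and genes near the rule, which also holds the member Atp5mpl. In pooled fibroblasts the complex I subunit listed as Ndufb1-ps had a ratio of 1.47 (167 and 114 CPM), the ATP synthase membrane subunit Usmg5 1.46 (146 and 99.9 CPM) and the complex I acyl carrier protein Ndufab1 1.06 (105 and 98.6 CPM).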

How the results depend on the processing

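No paired analysis was possible because the groups share fewer than 2 replicate numbers. Alternatives covered the cell filter, scaling, means of cells, thinning, the minimum count, the cells with most member counts and class weights. Chosen after seeing the data was subtraction of the median of genes of like coding length. So was leaving out copies together with Ndufa4l2, Atp5s and Cox7a2l, taken there as genes that are not subunits. Scaling moved the median of all genes by less than 0.03, from -0.025 to 0.019. Among complex and class medians and the counts of members, 201 values stayed within the median's order-statistic interval or 1.5 times the count and 9 did not. With coding length subtracted, the complex IV median was 0.21, that of the class labelled pericytes 0.18, and 5 members instead of 11 were at least 1.5-fold higher. With classes weighted equally that count was also 5. The median of all members was 0.28 with the class labelled pericytes added and, in myofibroblasts, 0.086 at a minimum of 500 effective counts, where 11 members were left. Members at least 1.2-fold lower numbered 2 with no minimum, 1 with classes weighted equally and 1 without the Asc1 class, instead of 0. Causes were not tested. The median of all members in pooled fibroblasts ranged from 0.16 to 0.28 and that of Cox8b from 1.16 to 1.38. Medians near 0, those of the citric acid cycle, inner membrane carriers, transcription regulators, mobile carriers and hypoxia lists, took either sign. So did those of complex II in myofibroblasts, from -0.16 to 0.11, and in Pi16 fibroblasts, from -0.076 to 0.097 and below 0 in 2 of 11. Depth limits the tissue isoforms Cox6a2, Cox7a1 and Cox7b2, which were under the minimum count in pooled fibroblasts.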
